A study of Homo sapiens with 12 samples.

Results

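Complex I of the mitochondrial respiratory chain, NADH:ubiquinone oxidoreductase, is built from many subunits, and most of their genes lie in the nucleus. The genes followed here were the protein-coding genes whose symbols start with NDUFA, NDUFB, NDUFC, NDUFS, NDUFV or NDUFAF. Of the 64252 gene IDs counted in each library, 115 carried such a symbol, 67 of them were not protein-coding, and 48 genes remained. Complex I takes electrons from NADH through a matrix arm to ubiquinone and pumps protons through a membrane arm. Its core subunits carry the flavin, the iron-sulfur clusters and the quinone site, its accessory subunits surround them, and assembly factors (the NDUFAF genes among them) help to build the enzyme and are not part of the finished complex. In the 48 genes there were 7 core subunits, 29 accessory subunits of the matrix or membrane arm, the acyl carrier subunit NDUFAB1, 8 assembly factors, NDUFA4 and its relative NDUFA4L2, and the read-through gene NDUFC2-KCTD14. NDUFA4 was long listed as a complex I subunit and is now known as a subunit of complex IV.

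RNA with poly(A) tails was sequenced from MDA-MB-231, a human breast cancer cell line without oestrogen receptor, progesterone receptor or HER2 amplification. The cells had been transfected with a plasmid that carried Dicer, the ribonuclease that cuts microRNA precursors, in 1 of 4 forms: Dicer mutation 1, mutation 2, mutation 3, or wild type. Each form had 3 libraries, 12 in all, and every group therefore received a Dicer plasmid. The labels number the mutations without naming them and leave it unsaid whether the 3 libraries of a form are separate cultures. The p-values therefore speak of library-to-library spread, which may be technical. No untransfected or empty-plasmid cells were analysed here, and all groups are 1 cell line.

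Levels are CPM, counts relative to the library total, after scaling by trimmed mean of M-values (TMM), and the deposited totals ran from 13507341 to 17078273 counts per library. Wild-type replicate 1 stood apart. Across genes, its log levels correlated at 0.945 with the other wild-type libraries and at 0.973 to 0.974 with the mutation 2 libraries, and it differed from wild-type replicates 2 and 3 by a mean chi-square of 148 and 141 per gene, against 1.26 to 3.51 in the 10 other pairs within a group (1 would be counting noise). Mitochondrial mRNA made up 1.27 to 1.36% of all counts in the mutation 1 libraries, 4.48 to 5.57% with mutation 2 and 4.81 to 5.05% with mutation 3, while the wild-type libraries had 1.34, 5.04 and 5.09%. DICER1 itself lay at 42.2 to 45.2 CPM with mutation 1, 44.4 to 45.6 CPM with mutation 2 and 38.8 to 40.0 CPM with mutation 3, and at 27.3, 45.1 and 47.3 CPM in the wild-type libraries, and the counts do not separate plasmid from cellular DICER1. For the cell line, VIM, CD44, AXL and CAV1 were abundant in every library (at least 516 CPM), and the T cell marker CD3E was at 0. TGFBI and ANXA1, also listed as abundant in this line, lay at 242 to 1081 CPM and 448 to 660 CPM. Of 6 genes listed as low or deleted in this line, ESR1 and PGR stayed at or below 0.653 CPM and CDKN2A at or below 1.07 CPM, while GATA3 lay at 7.71 to 30.0 CPM and ERBB3 at 6.15 to 17.9 CPM. The epithelial cadherin gene CDH1 lay at 9.58 to 12.2 CPM with mutation 1 and 13.8 CPM in wild-type replicate 1, against 0.523 to 1.23 CPM in the other libraries. The summed level of 12 markers of other cell types was 124 to 134 CPM with mutation 1, 38.9 to 43.3 CPM with mutation 2, 53.4 to 57.6 CPM with mutation 3 and 61.9 to 66.3 CPM with wild type, and PDGFRB alone lay at 76.5 to 84.8 CPM in the mutation 1 libraries. PECAM1, another of these markers, lay at 2.76, 17.1 and 15.3 CPM in the wild-type libraries and at 0.352 to 0.915 CPM in the mutant libraries. The part of these differences in the results was not tested, and counts are given with and without wild-type replicate 1.

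Complex I transcripts were lower, more often than higher, in each mutation against wild type. A gene was called when edgeR's quasi-likelihood test, adjusted by Benjamini-Hochberg over all 15094 genes tested, gave a p under 0.05, and 44 of the 48 genes passed the filter on low counts. With mutation 1, 6 genes rose and 26 fell, where 69% of all genes tested were called (32.5% higher, 36.5% lower). With mutation 2, 3 rose and 21 fell, where 37% of all genes were called (16.9% higher, 20.1% lower). With mutation 3, 4 rose and 24 fell, where 59.3% of all genes were called (28.1% higher, 31.2% lower). The share of tested complex I genes called, at 72.7%, 54.5% and 63.6% with mutations 1, 2 and 3, was near that background with mutations 1 and 3 and above it with mutation 2. The share that fell was 59.1%, 47.7% and 54.5%, and the share that rose 13.6%, 6.82% and 9.09%. With mutation 2 the number called was 14 with no filter on low counts, where 13.8% of all genes were called, and 11 when only that group and wild type were fitted, where 18.5% were. The median log2 fold change of the tested complex I genes was -0.31, -0.23 and -0.32, and that of all genes -0.04, -0.01 and -0.01. In bulk RNA, fewer cells of a kind and less RNA per cell cannot be told apart.

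Without wild-type replicate 1, where 45 of the 48 genes passed the filter, more genes were called in both directions. With mutation 1, 13 rose and 27 fell, with 82.7% of all genes called (40.2% higher, 42.5% lower). With mutation 2, 12 rose and 24 fell, with 67.9% of all genes called (33% higher, 34.9% lower). With mutation 3, 10 rose and 25 fell, with 77.1% of all genes called (38.2% higher, 38.8% lower). The medians were then -0.29, -0.15 and -0.26. With all libraries, mutant and wild-type ranges were apart in 35, 24 and 30 tested complex I genes with mutations 1, 2 and 3, and in 68%, 42.6% and 61% of all genes tested.

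The tested genes were not all measured equally well. NDUFA6, an accessory subunit of the matrix arm, and NDUFC2-KCTD14 were listed at 0 in all 12 libraries. NDUFA7, a matrix arm subunit, had 1 to 9 counts and NDUFA4L2 0 to 14 counts per library, and neither passed the filter. NDUFA3, a small subunit of the membrane arm, passed it with 1, 3 and 2 counts with mutation 1, 6, 2 and 14 with mutation 2 and 0, 1 and 4 with mutation 3, against 6, 15 and 10 with wild type, and its calls with mutations 1 and 3 rest on these few counts. In 5 of the 44 tested genes more than 50% of the coding bases were also exons of another counted gene in GENCODE v29: NDUFB8 (85.2%), NDUFV2 (84.7%), NDUFC2 (76.9%), NDUFA9 (67.9%) and NDUFA13 (55.2%). The authors' counting took no notice of strand and, per the file headers, was not set to count a read pair for several genes, so the levels of these genes can rest on the unshared remainder. With these genes left out (a choice made after seeing the data), 28, 21 and 24 of 39 tested genes were called with mutations 1, 2 and 3. Of these, 4, 3 and 2 were higher and 24, 18 and 22 lower. The share of all genes called was 69%, 37% and 59.3%. For 19 of the 48 genes GENCODE v29 names a pseudogene, and reads that match both places may be split or lost.

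**Figure D1:**
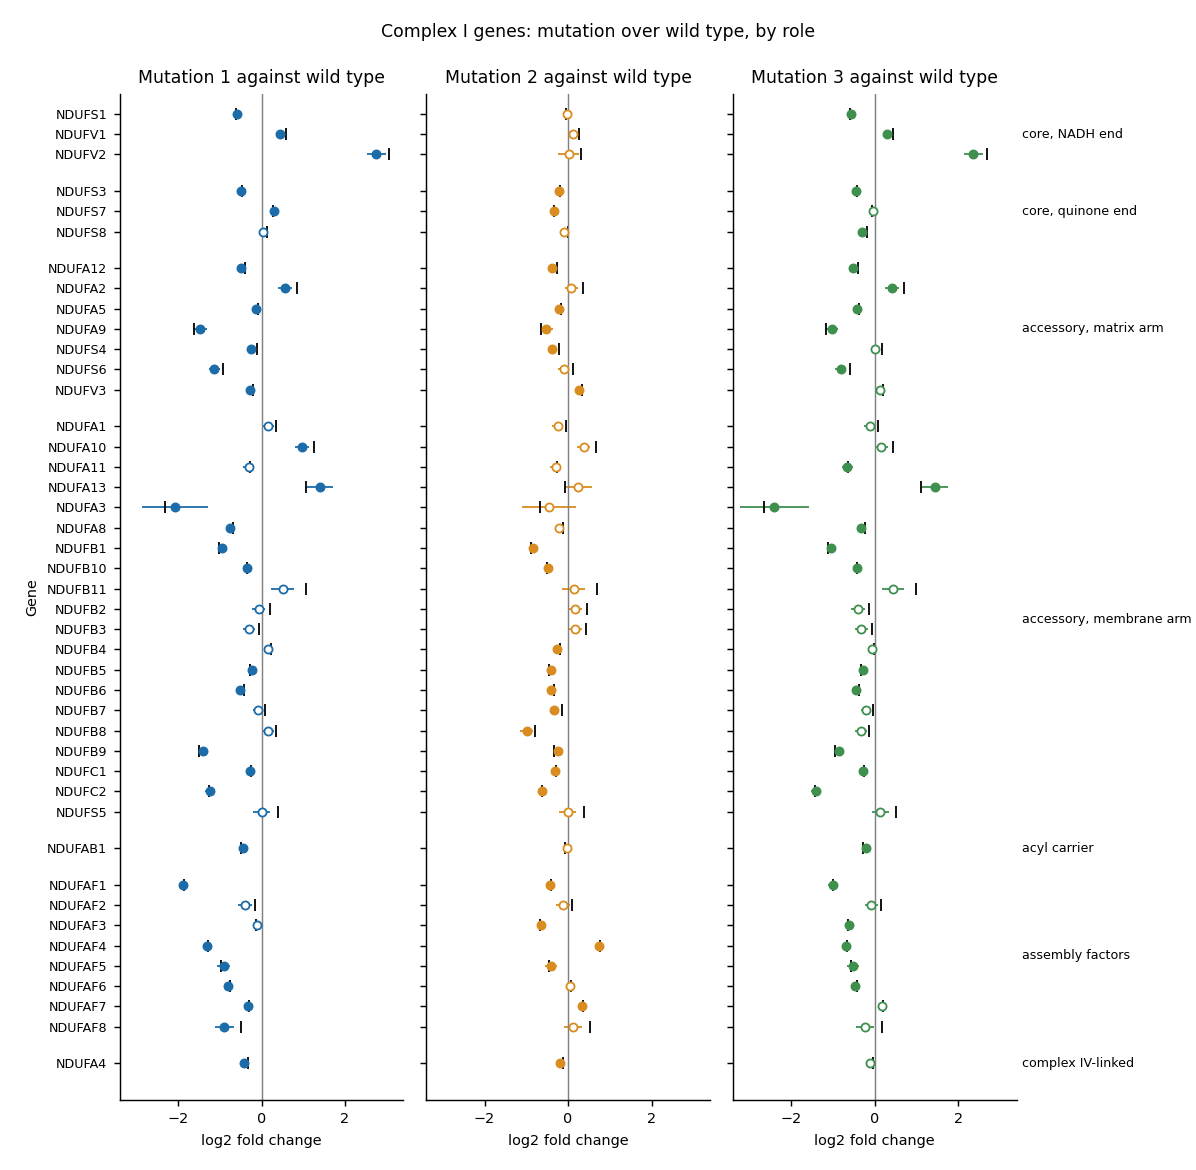
Log2 fold change of 43 tested complex I genes, each mutation over wild type, in 3 panels with genes grouped by role. Points and bars give the fitted value and its standard error, filled points passed the test at an adjusted p under 0.05, and black ticks give the value without wild-type replicate 1. Most filled points lie left of 0 in each panel, and NDUFV2 and NDUFA13 lie far to the right with mutations 1 and 3.

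Among the 7 core subunits, which hold the redox path, the 3 of the NADH end moved in different directions. NDUFS1, the largest iron-sulfur subunit, had 67.3, 69.9 and 71.0 CPM with mutation 1, 99.5, 106 and 104 CPM with mutation 2 and 70.5, 71.5 and 70.5 CPM with mutation 3, against 99.1, 104 and 110 CPM with wild type. The mutation 1 and mutation 3 libraries all lay below every wild-type library, and the mutation 2 libraries overlapped them. NDUFS1 fell by 0.59 on the log2 scale with mutation 1 (SE 0.05, adjusted p = 3.47e-06) and by 0.56 with mutation 3 (SE 0.05, adjusted p = 9.07e-06), and its value with mutation 2 was -0.02 (SE 0.05, adjusted p = 0.825). NDUFV1, which binds NADH and the flavin, had 216, 219 and 225 CPM with mutation 1, 171, 176 and 179 CPM with mutation 2 and 192, 206 and 192 CPM with mutation 3, against 191, 147 and 146 CPM with wild type. It rose with mutation 1 (log2 0.45, SE 0.09, adjusted p = 0.00135) and with mutation 3 (log2 0.29, SE 0.09, adjusted p = 0.0212). Wild-type replicate 1 lay well above the other 2 wild-type libraries, and without it NDUFV1 was called higher with all 3 mutations, by 0.59, 0.27 and 0.43. Both calls for NDUFV1 were lost when levels were scaled by library totals alone, and that with mutation 3 was lost under 10 of the alternatives tried.

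The third subunit of the NADH end, the iron-sulfur protein NDUFV2, gave the largest increase among the tested complex I genes. It had 11.4, 10.9 and 9.26 CPM with mutation 1, 1.69, 1.62 and 1.41 CPM with mutation 2 and 9.76, 7.45 and 6.96 CPM with mutation 3, against 2.17, 1.12 and 1.42 CPM with wild type. The mutation 1 and mutation 3 libraries lay far above all others, and the mutation 2 libraries overlapped wild type. The log2 fold change was 2.75 with mutation 1 (SE 0.23, adjusted p = 1.68e-06) and 2.37 with mutation 3 (SE 0.23, adjusted p = 9.30e-06), or 3.06 and 2.69 without wild-type replicate 1. Since 84.7% of its coding bases lie in exons of a second gene on the same strand, this value describes the reads that the counting left to NDUFV2.

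At the quinone end, the core subunit NDUFS3 fell with all 3 mutations, while NDUFS7 and NDUFS8 did not. NDUFS3, a subunit of the matrix arm, had 39.5, 39.6 and 40.6 CPM with mutation 1, 48.1, 47.6 and 48.7 CPM with mutation 2 and 39.4, 41.2 and 43.2 CPM with mutation 3, against 58.5, 55.4 and 55.4 CPM with wild type. All mutant libraries were below wild type, and NDUFS3 fell by 0.50, 0.23 and 0.45 with mutations 1, 2 and 3 (SE 0.05 each, adjusted p = 1.30e-05, 0.00755 and 4.44e-05).

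The iron-sulfur subunit NDUFS7 went in opposite directions. It had 47.1, 46.9 and 50.1 CPM with mutation 1, 30.1, 30.7 and 32.2 CPM with mutation 2 and 38.2, 37.0 and 37.9 CPM with mutation 3, against 38.2, 40.2 and 38.7 CPM with wild type. It rose with mutation 1 (log2 0.30, SE 0.06, adjusted p = 0.000690) and fell with mutation 2 (log2 -0.33, SE 0.06, adjusted p = 0.00122), and mutation 1 over mutation 2 gave 0.63 (SE 0.06, adjusted p = 2.77e-06). Scaled by library totals alone, the rise with mutation 1 was no longer called. NDUFS8, which carries the other iron-sulfur clusters near the quinone site, fell with mutation 3 (log2 -0.29, SE 0.07, adjusted p = 0.00593) and was 118, 119 and 116 CPM there, against 163, 131 and 139 CPM with wild type. It was called higher with mutation 1 (log2 0.13) once wild-type replicate 1 was left out.

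**Figure D2:**
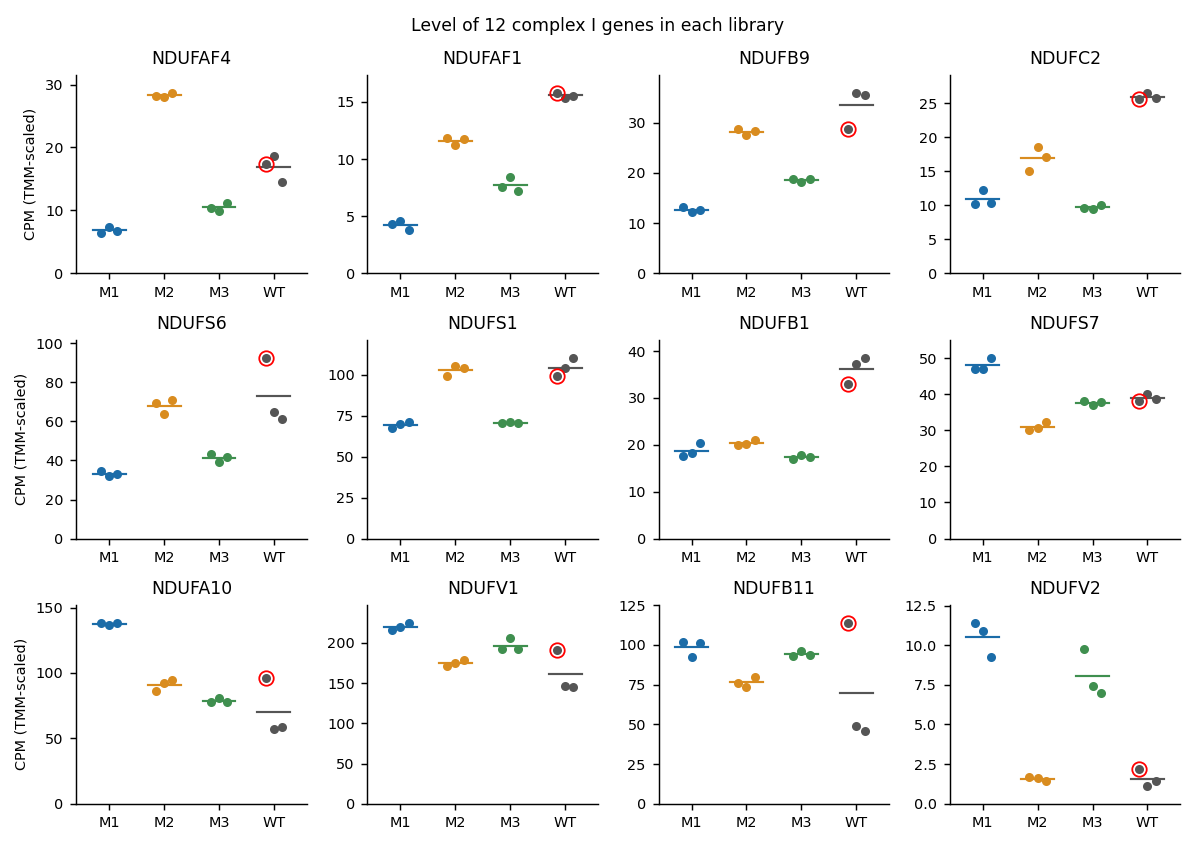
CPM (TMM-scaled) of 12 complex I genes in each library, with mutations 1, 2 and 3 (M1, M2, M3) left of wild type (WT). Each point is a library, lines are group means, and a red ring marks wild-type replicate 1. NDUFAF4 runs from 28.0 to 28.7 CPM with mutation 2, above wild type, and lies below wild type with mutations 1 and 3, and the ringed library stands apart in NDUFB11 and NDUFA10 and not in NDUFAF1.

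Of the 8 NDUFAF assembly factors, 6 fell and none rose with mutation 1, 3 fell and 2 rose with mutation 2, and 5 fell and none rose with mutation 3. The share called was 75%, 62.5% and 62.5%, near the background of 69% and 59.3% with mutations 1 and 3, and above that of 37% with mutation 2. Their median log2 fold change was -0.84, -0.04 and -0.49, and without wild-type replicate 1 it was -0.62, 0.08 and -0.50. Without that library 7, 3 and 5 were called lower and 0, 3 and 1 higher. In those fits 82.7%, 67.9% and 77.1% of all genes were called. In the comparison of mutation 1 with mutation 2, 6 of the 8 fell and 1 rose. There, 65.4% of all genes were called (31.8% higher, 33.6% lower).

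NDUFAF4, which takes part in building the quinone end together with NDUFAF3, had 6.47, 7.39 and 6.70 CPM with mutation 1, 28.2, 28.0 and 28.7 CPM with mutation 2 and 10.5, 9.87 and 11.1 CPM with mutation 3, against 17.4, 18.6 and 14.6 CPM with wild type. The 4 groups did not overlap, with mutation 2 above and mutations 1 and 3 below wild type. It fell by 1.30 with mutation 1 (SE 0.11, adjusted p = 1.36e-06) and by 0.69 with mutation 3 (SE 0.10, adjusted p = 0.000202), and it rose by 0.75 with mutation 2 (SE 0.10, adjusted p = 0.000281). Mutation 1 over mutation 2 gave -2.04 (SE 0.11, adjusted p = 4.55e-08), the largest decrease among the tested complex I genes in that comparison.

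NDUFAF1, a member of the assembly complex that builds the membrane arm, had 4.29, 4.57 and 3.83 CPM with mutation 1, 11.8, 11.2 and 11.7 CPM with mutation 2 and 7.57, 8.43 and 7.19 CPM with mutation 3, against 15.8, 15.4 and 15.5 CPM with wild type. The groups did not overlap and the 3 wild-type libraries lay close together. The falls were 1.88, 0.43 and 1.01 with mutations 1, 2 and 3 (SE 0.10 each, adjusted p = 7.00e-08, 0.00573 and 8.93e-06). Wild-type replicate 1, which stood apart in many other genes, was 1.02 times the mean of the other 2 here, and without it the falls were 1.85, 0.41 and 0.99.

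The promoters of genes called lower, higher or in both directions are shown so that their letters can be compared. They are the 250 bases before the annotated start in RefSeq (GRCh38.p14), written 5′ to 3′ on the strand of the gene. Capitals mark exact matches, on either strand, to motifs known as background from respiratory chain promoters: CCGGAAG for the ETS family that includes GABPA, and CCAAT for NF-Y.
NDUFAF4, chr6:96897892-96898141, minus strand: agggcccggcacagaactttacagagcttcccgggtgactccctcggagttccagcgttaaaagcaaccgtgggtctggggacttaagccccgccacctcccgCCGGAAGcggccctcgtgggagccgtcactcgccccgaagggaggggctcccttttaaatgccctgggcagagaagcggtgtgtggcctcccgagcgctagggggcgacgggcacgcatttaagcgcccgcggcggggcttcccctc
NDUFAF1, chr15:41402497-41402746, minus strand: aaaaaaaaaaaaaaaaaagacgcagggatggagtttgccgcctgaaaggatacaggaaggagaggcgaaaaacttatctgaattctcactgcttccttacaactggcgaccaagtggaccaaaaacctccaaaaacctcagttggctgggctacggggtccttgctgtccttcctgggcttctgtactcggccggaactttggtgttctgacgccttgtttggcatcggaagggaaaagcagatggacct
NDUFS3, chr11:47578824-47579073, plus strand: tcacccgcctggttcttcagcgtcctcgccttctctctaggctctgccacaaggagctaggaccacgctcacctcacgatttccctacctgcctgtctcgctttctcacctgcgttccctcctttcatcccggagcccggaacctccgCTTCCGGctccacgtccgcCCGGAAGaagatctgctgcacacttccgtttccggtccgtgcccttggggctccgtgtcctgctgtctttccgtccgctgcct
NDUFB1, chr14:92121707-92121956, minus strand: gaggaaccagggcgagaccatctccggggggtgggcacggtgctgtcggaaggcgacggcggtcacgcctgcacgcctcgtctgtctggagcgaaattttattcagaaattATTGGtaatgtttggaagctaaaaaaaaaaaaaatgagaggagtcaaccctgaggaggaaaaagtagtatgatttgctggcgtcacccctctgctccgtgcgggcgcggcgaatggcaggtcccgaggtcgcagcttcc
NDUFA10, chr2:240025343-240025592, minus strand: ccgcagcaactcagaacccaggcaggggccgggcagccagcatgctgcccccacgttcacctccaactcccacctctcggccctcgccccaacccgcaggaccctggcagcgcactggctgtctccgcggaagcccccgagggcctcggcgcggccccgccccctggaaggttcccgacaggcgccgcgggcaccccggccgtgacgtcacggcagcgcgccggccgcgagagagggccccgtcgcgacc
NDUFS3 held 2 ETS matches, NDUFAF4 1 ETS match and NDUFB1 1 NF-Y match, and NDUFAF1 and NDUFA10 held none of the motifs searched.

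In all, 42 of the 48 genes had such a promoter entry, and motifs were searched on both strands of the 300 bases from 250 before to 50 after the start. The ETS motif was found in 6 of the 42 (14.3%), against 14.2% of 15843 protein-coding promoters. The palindromic motif of NRF1, a regulator of respiratory genes, was found in 3 (7.14%), against 1.75%: NDUFA8, NDUFAF5 and NDUFB4. The YY1 motif AAGATGGCG was found in 5 (11.9%), against 2.74%, and the NF-Y motif CCAAT in 11 (26.2%), against 36.4%. Matches of different motifs overlapped in none of the 42, and 19 held no match. These matches describe letters in a window only.

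Of the other assembly factors named NDUFAF, NDUFAF5, which hydroxylates NDUFS7, fell with all 3 mutations (log2 -0.91, -0.41 and -0.53), and 9 of the alternatives lost the call with mutation 2. Its partner NDUFAF8 had 16.6, 17.0 and 17.0 CPM with mutation 1, 33.2, 35.5 and 32.3 CPM with mutation 2 and 26.0, 28.5 and 25.9 CPM with mutation 3, against 46.5, 23.6 and 23.7 CPM with wild type. It was called lower with mutation 1 (log2 -0.89, SE 0.22, adjusted p = 0.00417), and wild-type replicate 1 was 1.96 times the mean of the other 2. Without that library the value with mutation 1 was -0.48, and those with mutations 2 and 3 were called higher, at 0.51 and 0.19. NDUFAF3, the partner of NDUFAF4, was at 43.6, 36.0 and 42.2 CPM with mutation 1, 26.7, 27.8 and 29.2 CPM with mutation 2 and 28.4, 28.8 and 28.5 CPM with mutation 3, against 41.1, 42.6 and 47.3 CPM with wild type. It fell with mutation 2 (log2 -0.65, SE 0.08, adjusted p = 0.000232) and mutation 3 (log2 -0.61, SE 0.08, adjusted p = 0.000106), and its value with mutation 1 was -0.11 (SE 0.08, adjusted p = 0.279). Without wild-type replicate 1, NDUFAF3 was called lower with mutation 1 too. NDUFAF6 fell with mutations 1 and 3 (log2 -0.79 and -0.46), and NDUFAF2, which is replaced by NDUFA12 late in assembly, was called in none of the 6 comparisons, with values of -0.39, -0.13 and -0.08 against wild type. NDUFAF7, a methyltransferase, fell with mutation 1 (log2 -0.32, adjusted p = 0.0217) and rose with mutation 2 (log2 0.34, adjusted p = 0.0290), and each of these calls was lost under 6 of the alternatives. Its value with mutation 3 was 0.17 (adjusted p = 0.181), with all 3 libraries above wild type.

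The matrix arm has 9 accessory subunits on the list, of which 7 were tested: 1 rose and 6 fell with mutation 1, and 1 rose and 4 fell with each of the other mutations. The share called was 100%, 71.4% and 71.4% with mutations 1, 2 and 3, where 69%, 37% and 59.3% of all genes were called. With wild-type replicate 1 left out, 1, 3 and 3 rose with mutations 1, 2 and 3, and 4 fell with each. In those fits 82.7%, 67.9% and 77.1% of all genes were called. NDUFS6, a zinc-binding subunit needed to attach the NADH end, had 34.4, 32.2 and 33.0 CPM with mutation 1, 69.5, 63.6 and 70.9 CPM with mutation 2 and 43.3, 39.1 and 42.0 CPM with mutation 3, against 92.6, 64.8 and 61.3 CPM with wild type. Mutations 1 and 3 lay below every wild-type library, and the mutation 2 libraries overlapped them. NDUFS6 fell by 1.13 with mutation 1 (SE 0.13, adjusted p = 2.38e-05) and by 0.81 with mutation 3 (SE 0.13, adjusted p = 0.000367), or by 0.92 and 0.60 without wild-type replicate 1. Mutation 1 was also below mutation 2 (log2 -1.03, SE 0.13, adjusted p = 4.93e-05).

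NDUFA9, which lies near the quinone site, had 4.71, 4.77 and 3.59 CPM with mutation 1, 8.66, 9.15 and 7.78 CPM with mutation 2 and 6.26, 5.36 and 6.30 CPM with mutation 3, against 9.65, 13.2 and 13.7 CPM with wild type. It fell with each mutation (log2 -1.48, -0.52 and -1.03, adjusted p = 1.64e-05, 0.0262 and 0.000289), with 67.9% of its coding bases shared with another gene. The call of NDUFA9 with mutation 2 was lost under 6 of the alternatives. NDUFA12, the subunit that takes the place of the assembly factor NDUFAF2, fell with each mutation by 0.50, 0.38 and 0.52, and NDUFA5 by 0.14, 0.22 and 0.41. The fall of NDUFA5 with mutation 1 (adjusted p = 0.0415) and that of NDUFS4 (log2 -0.26, adjusted p = 0.0397) were the only calls against wild type in these genes lost without wild-type replicate 1, where their adjusted p was 0.112 and 0.0677. In all, 15 and 14 of the alternatives lost these calls. NDUFA2, which has a thioredoxin-like fold, was called higher with mutation 1 (log2 0.56, adjusted p = 0.00934) and mutation 3 (log2 0.41, adjusted p = 0.0460), and the second call was lost under 15 of the alternatives tried. NDUFS4 also fell with mutation 2 (log2 -0.38, adjusted p = 0.0137). NDUFV3, at the NADH end, fell with mutation 1 (log2 -0.29, adjusted p = 0.0162) and rose with mutation 2 (log2 0.27, adjusted p = 0.0378), and these calls were lost under 3 and 13 of the alternatives.

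In the membrane arm, all 20 accessory subunits were tested, and 2 rose and 9 fell with mutation 1, none rose and 10 fell with mutation 2, and 1 rose and 10 fell with mutation 3. The share called was 55%, 50% and 55%, below the 69% and 59.3% of all genes with mutations 1 and 3. With mutation 2 it was above the 37% of all genes. Leaving out wild-type replicate 1 gave 8, 5 and 4 that rose and 10, 12 and 10 that fell, where 82.7%, 67.9% and 77.1% of all genes were called. NDUFB1, NDUFB5, NDUFB6, NDUFB9 and NDUFB10 fell with all 3 mutations. The call of NDUFB5 with mutation 1 was lost under 8 of the alternatives. NDUFB9, a LYR-motif protein that binds the acyl carrier subunit, had 13.2, 12.3 and 12.6 CPM with mutation 1, 28.6, 27.6 and 28.4 CPM with mutation 2 and 18.7, 18.2 and 18.7 CPM with mutation 3, against 28.7, 36.0 and 35.5 CPM with wild type. The groups did not overlap, with mutation 1 lowest, and NDUFB9 fell by 1.40, 0.24 and 0.85 with mutations 1, 2 and 3 (SE 0.09 each, adjusted p = 2.22e-07, 0.0463 and 1.43e-05). The call of NDUFB9 with mutation 2 was lost under 8 of the alternatives. NDUFB1, a small membrane subunit, had 17.7, 18.2 and 20.4 CPM with mutation 1, 19.9, 20.2 and 20.9 CPM with mutation 2 and 17.0, 17.9 and 17.5 CPM with mutation 3, against 33.1, 37.1 and 38.6 CPM with wild type. Its falls were 0.95, 0.83 and 1.06 with mutations 1, 2 and 3 (SE 0.08 each, adjusted p = 1.84e-06, 4.30e-05 and 1.71e-06), and mutation 3 over mutation 2 gave -0.22 (SE 0.08, adjusted p = 0.0401). This last call was lost under 8 of the alternatives. The libraries of mutations 3 and 2 did not overlap, as in 75.9% of all genes tested.

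NDUFC2, a subunit next to ND2 in the membrane arm, had 10.3, 12.2 and 10.4 CPM with mutation 1, 14.99, 18.6 and 17.1 CPM with mutation 2 and 9.64, 9.54 and 10.1 CPM with mutation 3, against 25.7, 26.6 and 25.8 CPM with wild type. It fell by 1.25, 0.62 and 1.41 (SE 0.10 each, adjusted p = 1.25e-06, 0.000767 and 9.88e-07), and 76.9% of its coding bases are shared with the read-through gene NDUFC2-KCTD14, which was itself listed at 0. Its neighbour NDUFC1 fell by 0.28, 0.32 and 0.29, and NDUFB10 by 0.34, 0.49 and 0.42. NDUFB8, another membrane arm subunit, had 10.3, 10.0 and 9.58 CPM with mutation 1, 4.29, 4.35 and 4.85 CPM with mutation 2 and 7.39, 6.60 and 7.34 CPM with mutation 3, against 11.1, 7.37 and 8.48 CPM with wild type. It was called lower with mutation 2 (log2 -0.99, SE 0.15, adjusted p = 0.000585), and mutation 1 over mutation 2 gave 1.15 (SE 0.15, adjusted p = 5.39e-05).

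NDUFA8 fell with mutations 1 and 3 (log2 -0.76 and -0.32), NDUFA11 with mutation 3 (log2 -0.66), and NDUFB4 and NDUFB7 with mutation 2 (log2 -0.26 and -0.33). NDUFA1, NDUFB2 and NDUFB3 were not called against wild type, with log2 values between -0.40 and 0.17. Once wild-type replicate 1 was left out, NDUFA1 (log2 0.35) and NDUFB2 (log2 0.20) were called higher with mutation 1, and NDUFB2 (log2 0.44) and NDUFB3 (log2 0.42) with mutation 2. NDUFB4 was then called higher with mutation 1. NDUFA11 was then called lower with mutations 1 and 2 too, and NDUFA8 with mutation 2.

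Increases in the membrane arm were fewer. NDUFA10, a subunit with a kinase-like fold, had 138, 136 and 138 CPM with mutation 1, 86.2, 92.4 and 94.8 CPM with mutation 2 and 77.5, 80.6 and 78.0 CPM with mutation 3, against 95.8, 57.1 and 58.6 CPM with wild type. It rose with mutation 1 (log2 0.96, SE 0.16, adjusted p = 0.000300), and without wild-type replicate 1 it was called higher with all 3 mutations, at 1.25, 0.66 and 0.45. With all libraries, mutation 1 also lay above mutation 2 (log2 0.59, SE 0.16, adjusted p = 0.00699) and mutation 3 (log2 0.80, SE 0.16, adjusted p = 0.00218). NDUFA13, also known as GRIM-19, rose with mutation 1 (log2 1.40, SE 0.31, adjusted p = 0.00222) and mutation 3 (log2 1.44, SE 0.31, adjusted p = 0.00231), or by 1.06 and 1.11 without wild-type replicate 1. Its levels were low, at 6.61, 6.51 and 7.18 CPM with mutation 1, 2.25, 4.02 and 2.82 CPM with mutation 2 and 6.70, 7.19 and 7.04 CPM with mutation 3, against 1.18, 3.30 and 3.17 CPM with wild type.

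For some genes the call depended on wild-type replicate 1. NDUFB11, a subunit of the membrane arm encoded on the X chromosome, had 102, 92.5 and 101 CPM with mutation 1, 76.2, 73.5 and 79.5 CPM with mutation 2 and 92.7, 96.4 and 93.9 CPM with mutation 3, against 114, 49.2 and 45.8 CPM with wild type. It was called in none of the 6 comparisons, and without wild-type replicate 1 it was called higher with each mutation, at 1.05, 0.69 and 0.99. NDUFS5 behaved likewise, with 178, 91.7 and 94.0 CPM in the wild-type libraries and log2 values of 0.39, 0.38 and 0.52 without the first of them. Across the tested genes, wild-type replicate 1 lay above both other wild-type libraries in 29 and below both in 14. It exceeded 1.5 times their mean in 9 and lay under 1/1.5 of it in 2. These counts were not made over all genes, across which this library also stood apart.

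In 14 genes the fall was called with all 3 mutations (9.59% of all genes tested did so), and none was called higher with all 3 (7.51% of all genes did). Among the 14 were NDUFS3 of the core, NDUFA5, NDUFA9 and NDUFA12 of the matrix arm, NDUFB1, NDUFB5, NDUFB6, NDUFB9, NDUFB10, NDUFC1 and NDUFC2 of the membrane arm, and the assembly factors NDUFAF1 and NDUFAF5. The 3 comparisons share the wild-type libraries. Some of these calls, among them those of NDUFA5 and NDUFB5 with mutation 1 and of NDUFA9 with mutation 2, were lost under several alternatives. Without wild-type replicate 1, 16 genes fell and 5 rose with all 3 (21% and 19.1% of all genes did), and the 5 were NDUFA10, NDUFA2, NDUFB11, NDUFS5 and NDUFV1. NDUFA8, NDUFA11 and NDUFAF3 joined those called lower with all 3, and NDUFA5 left them. NDUFAB1, the mitochondrial acyl carrier protein, fell with mutation 1 (log2 -0.44, adjusted p = 0.000234) and mutation 3 (log2 -0.22, adjusted p = 0.0207). The complex IV subunit NDUFA4 fell with mutation 1 (log2 -0.42, adjusted p = 0.000444) and by 0.20 with mutation 2 (adjusted p = 0.0474), a call that 14 of the alternatives lost, and its value with mutation 3 was -0.12 (adjusted p = 0.183).

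**Figure D3:**
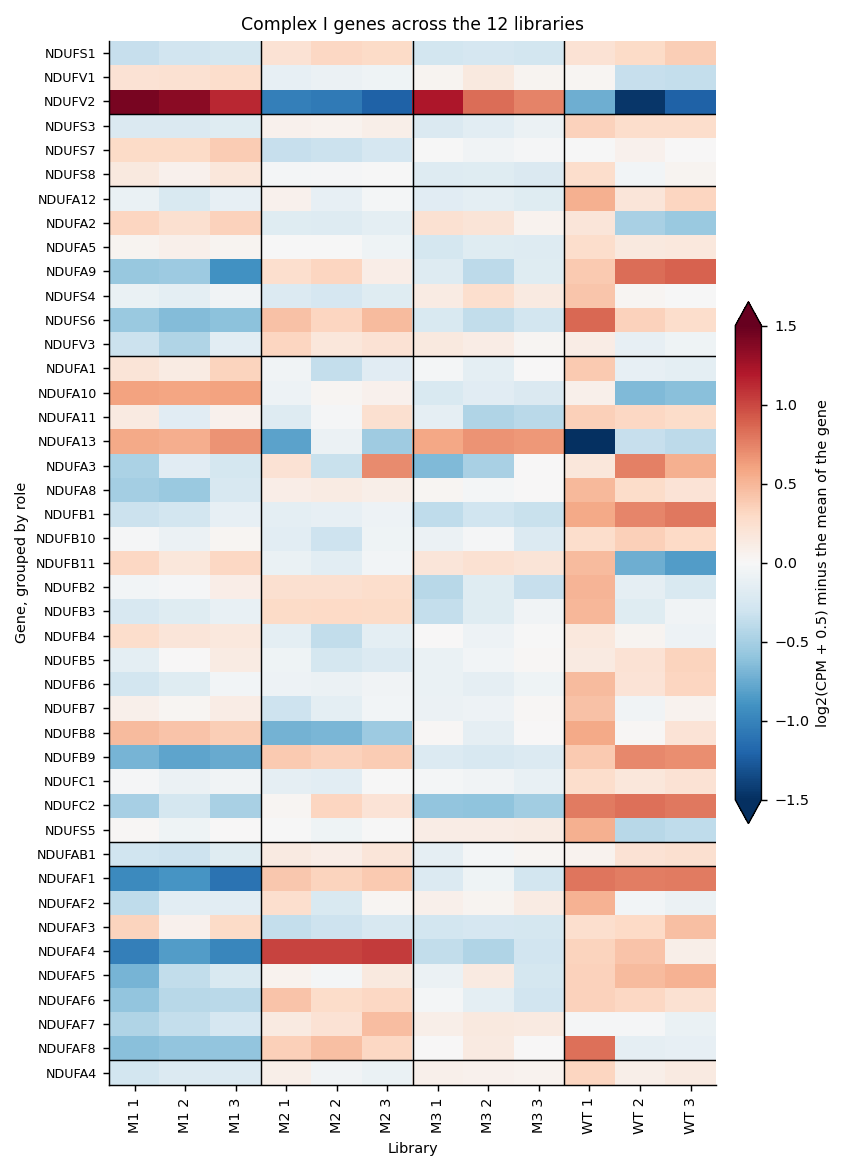
Log2(CPM + 0.5) of 43 tested complex I genes minus the mean of each gene over the 12 libraries, with mutations 1, 2 and 3 left of wild type and genes grouped by role between black lines. Red is above and blue below the mean of the gene, and values beyond the scale take its end colour. The columns of a mutation look alike, and WT 1 differs from WT 2 and WT 3 in NDUFB11, NDUFS5, NDUFA10 and NDUFA13.

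The mutations also differed from each other, though wild-type libraries enter the spread that the fit shares. Mutation 1 against mutation 2 gave 10 genes higher and 17 lower, where 65.4% of all genes were called (31.8% higher, 33.6% lower). Scaled by library totals alone that split was 6 to 24, with the median of all genes at -0.23 in place of -0.03. Of all genes, 3679 were then called higher and 6262 lower. Mutation 1 against mutation 3 gave 7 higher and 11 lower, where 42.8% of all genes were called (20.2% higher, 22.5% lower). The split was 5 to 14 with library totals alone (median of all genes -0.11), and 2361 to 4156 over all genes. With DESeq2 it was 8 to 8, and 3366 to 3181 over all genes. Mutation 3 against mutation 2 gave 5 higher and 15 lower, where 52.9% of all genes were called (25.7% higher, 27.2% lower). Median log2 fold changes of the tested complex I genes were -0.11, 0.01 and -0.13. Libraries did not overlap in 33, 29 and 30 genes, against 81.6%, 69.8% and 75.9% of all genes. Over all 4 groups, 39 of the 44 tested genes differed by an F test, where 83% of all genes did. Without wild-type replicate 1 the counts were 16 higher and 21 lower for mutation 1 against mutation 2 (80.2% of all genes called, 39.6% higher and 40.6% lower), 14 and 16 for mutation 1 against mutation 3 (66.6%, with 32.9% and 33.6%) and 12 and 21 for mutation 3 against mutation 2 (72.9%, with 36.3% and 36.6%), and all 45 tested genes differed by the F test, where 94.9% of all genes did. For mutation 1 against mutation 3, 11 genes were called without mutation 1 replicate 1, where 33.4% of all genes were, or without mutation 3 replicate 2, where 33% were.

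Summed over the 48 genes, levels were 2052, 2015 and 2123 CPM with mutation 1, 2060, 2012 and 2097 CPM with mutation 2 and 1965, 1988 and 1969 CPM with mutation 3, against 2577, 2101 and 2119 CPM with wild type. The mutation 3 libraries had the lowest sums on this scale, whereas with library totals alone the lowest mean was that of mutation 1, at 1884 CPM, against 1922 CPM with mutation 3. After TMM scaling the wild-type mean was 2110 CPM without wild-type replicate 1. Group means were 2063 ± 54.9, 2056 ± 42.6 and 1974 ± 12.03 CPM with mutations 1, 2 and 3 and 2266 ± 270 CPM with wild type (SD, n = 3 each), and no test was run on this sum.

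**Figure D4:**
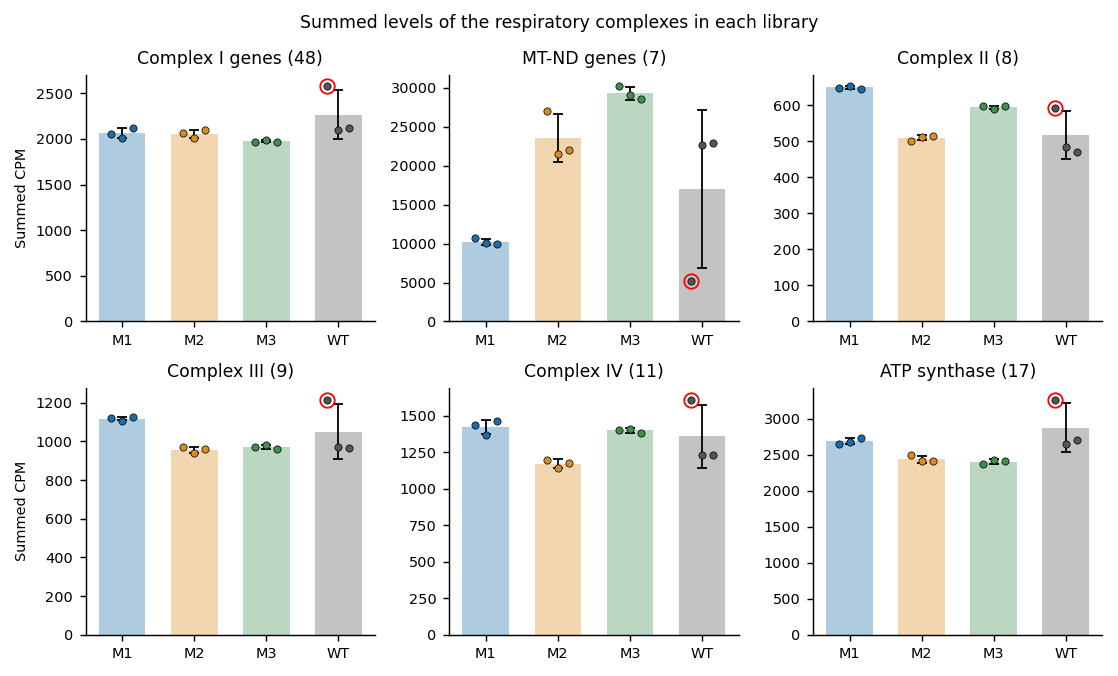
Summed CPM per library of the nuclear-encoded complex I genes, the mitochondrially encoded complex I subunits (MT-ND genes) and nuclear genes of complexes II, III, IV and ATP synthase, with mutations 1, 2 and 3 (M1, M2, M3) left of wild type (WT) and the number of genes in each title. Bars are means, error bars the SD of 3 libraries, points single libraries, and a red ring marks wild-type replicate 1. The ringed library is highest in the nuclear sums of complex I, III, IV and ATP synthase and lowest in the MT-ND sum.

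Other genes of the pathway gave the following counts against wild type. Of 14 further assembly factors outside the NDUFAF names, 1 rose and 9 fell with mutation 1, 2 rose and 4 fell with mutation 2, and 1 rose and 6 fell with mutation 3. These were 71.4%, 42.9% and 50% of the 14, where 69%, 37% and 59.3% of all genes were called. Leaving out wild-type replicate 1 gave 2 and 9, 3 and 5, and 3 and 6, where 82.7%, 67.9% and 77.1% of all genes were called. TMEM70, which helps to assemble complex I and ATP synthase, averaged 7.57, 18.7 and 11.6 CPM with mutations 1, 2 and 3, against 23.5 CPM with wild type, and fell by 1.64, 0.34 and 1.03. ACAD9, a partner of NDUFAF1, had 23.9 to 24.8 CPM with mutation 1, 36.2 to 39.1 CPM with mutation 2 and a mean of 21.5 CPM with mutation 3, against 40.6 to 48.5 CPM with wild type, and it fell by 1.04 with mutation 3 (SE 0.08, adjusted p = 1.53e-06). The 7 complex I subunits encoded in mitochondrial DNA summed to 9927 to 10660 CPM with mutation 1, 21440 to 27032 CPM with mutation 2 and 28586 to 30188 CPM with mutation 3, against 5236, 22704 and 22897 CPM with wild type. With mutation 1, 4 of these 7 fell and none rose. With mutation 2 none was called, and with mutation 3 there were 2 that rose and 1 that fell. These calls made up 57.1%, 0% and 42.9% of the 7, where 69%, 37% and 59.3% of all genes were called. With wild-type replicate 1 left out the counts were 1 higher and 6 lower, 3 and 0, and 4 and 1. The share of all genes called was then 82.7%, 67.9% and 77.1%. Wild-type replicate 1 was the lowest of all libraries in this sum and the highest in the sum of the nuclear genes.

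In the other respiratory complexes the counts were as follows with mutation 1, and no test compared the lists. There, 4 of 8 complex II genes rose and 2 fell, 2 of 9 complex III genes rose and 2 fell, 3 of 11 complex IV genes rose and 2 fell, and 2 of 17 ATP synthase genes rose and 5 fell. Their median log2 fold changes were 0.24, 0.11, 0.13 and -0.10, against -0.31 for the tested complex I genes, and 0.46, 0.17, 0.22 and 0.05 without wild-type replicate 1, against -0.29. The share called was 75%, 44.4%, 45.5% and 41.2%, where 69% of all genes were called. With mutation 2 the counts were 0 up and 1 down, 0 and 3, 0 and 5, and 0 and 8. These were 12.5%, 33.3%, 45.5% and 47.1% of the genes, where 37% of all genes were called. The medians were -0.07, -0.10, -0.18 and -0.21, against -0.23 for the tested complex I genes. Without wild-type replicate 1 they were 0.01, -0.01, -0.06 and -0.12, against -0.15. With mutation 3 the counts were 2 and 2, 0 and 4, 0 and 1, and 2 and 8. These were 50%, 44.4%, 9.09% and 58.8% of the genes, where 59.3% of all genes were called. The medians were 0.07, -0.15, 0.08 and -0.24, against -0.32 for the tested complex I genes. Without wild-type replicate 1 they were 0.19, -0.01, 0.29 and -0.02, against -0.26. Leaving out wild-type replicate 1 gave 5 up and 2 down, 7 and 2, 7 and 2, and 8 and 7 with mutation 1, 2 and 2, 3 and 3, 5 and 5, and 6 and 9 with mutation 2, and 4 and 2, 4 and 4, 6 and 2, and 7 and 8 with mutation 3. In those fits 82.7%, 67.9% and 77.1% of all genes were called with mutations 1, 2 and 3. For the complex IV genes with mutation 3, the median was above 0 with and without wild-type replicate 1. NDUFA4, a complex IV subunit, was counted throughout with the complex I genes and not with these 11. Of 14 regulators of mitochondrial gene expression, 5 rose and 8 fell with mutation 1, 5 rose and 2 fell with mutation 2, and 4 rose and 5 fell with mutation 3, or 5 and 9, 6 and 4, and 5 and 6 without wild-type replicate 1. With all libraries 92.9%, 50% and 64.3% of these regulators were called, where 69%, 37% and 59.3% of all genes were. NRF1 averaged 11.5 CPM with mutation 1, against 21.7 CPM with wild type (log2 -0.92), and the coactivator PPARGC1A averaged 16.0 and 17.7 CPM with mutations 1 and 3, against 2.58 CPM with wild type (log2 2.62 and 2.77).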

How the data were processed

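Each of the 12 libraries has its own table of whole-number counts as the authors deposited it. Per the file headers, read pairs were assigned to Ensembl genes by featureCounts 2.0.6 without strand, over exons, with a minimum mapping quality of 10 and an hg38 gene track. Quality control with FastQC 0.11.8, trimming with cutadapt 1.9.1, and the tools STAR, SAMtools and DESeq2 (no version) are named per the submitters' processing notes. Symbols, gene types, coordinates and shared exons came from GENCODE v29 on hg38, which may differ from the track the authors used, and promoter sequences from RefSeq GRCh38.p14.

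From the counts, levels were computed as CPM with TMM scaling. edgeR 4.0.16 in R 4.3.3 fitted 1 quasi-likelihood model (robust, 8 residual degrees of freedom) to all 12 libraries and the 15094 genes kept by filterByExpr (minimum count 10, minimum total 15), with no covariate. Tests were two-sided, p-values were adjusted by Benjamini-Hochberg over all genes tested, and each SE was taken from the log2 fold change and its F statistic. The method was tested on simulated data. Library totals of 13507341 to 17078273 counts set the precision, which is low for genes of a few counts. Groups came from the genotype label, and replicate numbers of the mutant libraries only name them. Alternatives were other scaling, no filter, a fit of 2 groups, DESeq2 1.42.0 and leaving out each library.

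Full statistics were planned for the core subunits, NDUFA4 and NDUFA4L2, genes called the same way with all 3 mutations, and the 5 largest increases and decreases per comparison without overlap. The genes, lists and motifs were chosen with earlier results of these data known. The values of 1 tested gene are not reported here or drawn, though it stays in the counts.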

Additional observations from a re-analysis of the deposited data

How the results depend on the processing

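Depth and the few libraries limit genes of a few counts such as NDUFA3. Among 125 called values of the genes given full statistics, 38 missed the threshold under at least 1 alternative and 0 changed sign. The number of complex I genes called with mutation 2 against wild type was 24, and 14 with no filter on low counts (more genes tested, 13.8% of them called) or 11 in a fit of only those groups (18.5% of all genes called), against 37% of all genes otherwise. For mutation 1 against mutation 3 it was 18 (42.8% of all genes called), and 30 in a fit of only those groups. In that fit 10073 of all 14207 genes tested were called. For mutation 3 against mutation 2 the number of complex I genes was 20 (52.9% of all genes called), and 34 in a fit of only those groups. There, 10994 of all 14143 genes tested were called. Both of these fits leave out the wild-type libraries, replicate 1 among them, and the remaining mutation, and the part of each was not tested. With library totals alone the summed level was 1884 CPM with mutation 1, 2171 CPM with mutation 2 and 1922 CPM with mutation 3, against 2063, 2056 and 1974 CPM after TMM scaling, so that the lowest group was mutation 1 in place of mutation 3. The split with mutation 1 against wild type was then 3 higher and 31 lower, with the median of all genes at -0.25. Of all 15094 genes tested, 3754 were then called higher and 6643 lower.

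Leaving out 1 library at a time, the number of genes called ranged from 26 to 40 for mutation 1, 16 to 36 for mutation 2 and 24 to 35 for mutation 3 against wild type. It ranged from 23 to 37 for mutation 1 against mutation 2, 11 to 30 for mutation 1 against mutation 3, 15 to 33 for mutation 3 against mutation 2 and 35 to 45 over the 4 groups. Mutation 1 against mutation 3 gave 30 without wild-type replicate 1 and 11 without mutation 1 replicate 1 or mutation 3 replicate 2, and mutation 3 against mutation 2 gave 33 without wild-type replicate 1. Each highest number came without wild-type replicate 1, and the share of all genes called rose there too. It was 82.7%, 67.9% and 77.1% against wild type, 80.2%, 66.6% and 72.9% between mutations, and 94.9% over the 4 groups. For the 2 fits that gave 11 genes it was 33.4% and 33%. The mean summed level ranged from 2034 to 2088 CPM with mutation 1, 2036 to 2078 CPM with mutation 2, 1967 to 1979 CPM with mutation 3 and 2110 to 2348 CPM with wild type. No paired analysis was possible because the mutant libraries carry no replicate numbers in the labels.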
